A study of Homo sapiens with 4 samples.

Results

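The genes of oxidative phosphorylation were examined across untreated and inhibitor-resistant cells of the A375 line, an established human melanoma line that carries an activating BRAF mutation. Members were the protein-coding genes whose GENCODE 29 symbols begin with NDUFA, NDUFB, NDUFC, NDUFS, NDUFV, UQCR, COX4, COX5, COX6, COX7, COX8 or ATP5, together with SDHA, SDHB, SDHC, SDHD and the 13 protein-coding genes of the mitochondrial genome. This gave 112 of the 32991 gene identifiers listed in all 4 tables, of which 13 are mitochondrially encoded and 99 nuclear-encoded. Of the nuclear-encoded members, 83 are subunits (37 of complex I, 4 of complex II, 8 of complex III, 17 of complex IV and 17 of complex V). The other 16 are 8 complex I assembly factors (NDUFAF1 to NDUFAF8), the ATP synthase inhibitor ATP5IF1, the coupling factor ATP5S, the supercomplex factor COX7A2L, the subunit paralogues NDUFA4L2, ATP5MGL and UQCRHL, and 2 readthrough genes.

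Oxidative phosphorylation is carried out in the inner mitochondrial membrane. Complex I oxidises NADH, complex II oxidises succinate, complex III passes electrons from ubiquinol to cytochrome c, complex IV reduces oxygen, and complex V uses the resulting proton gradient to make ATP. Complex II is wholly nuclear-encoded, whereas the other complexes are built from products of both genomes, so that the nucleus supplies most subunits and the mitochondrial genome the core membrane subunits. In melanoma, oxidative metabolism is a recurrent theme of studies of BRAF inhibitor tolerance, and PPARGC1A is the coactivator best known for raising it.

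The 4 groups were untreated sensitive cells (S), cells made resistant to the BRAF inhibitor vemurafenib (RV), and cells made resistant to vemurafenib together with a MEK inhibitor, cobimetinib (RVC) or trametinib (RVT). Inhibitors were given below the IC50 for 10 to 14 days and withdrawn 24 h before capture, and all cultures are labelled A375. Each group was 1 culture and 1 droplet library, so no difference between groups could be tested and every interval given here (95%) covers counting error only. A unique molecular identifier (UMI) marks 1 captured RNA molecule, and levels are UMIs per 1000000 UMIs of the library (CPM), summed over its cells. Where 4 values follow each other they stand in the order S, RV, RVC, RVT.

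After filtering, 6334 S, 4177 RV, 7620 RVC and 8443 RVT cells remained, with 58611860, 52389992, 32955913 and 25400107 UMIs in all and medians of 8807.5, 11553, 3959.5 and 2871 UMIs per cell. S and RV thus held more than RVC and RVT, and these pairs were also counted against different gene annotations. Library pairs shared 36 to 105 filtered barcodes, at most 1.38% of either library. Of the melanocyte markers, MLANA, TYR and DCT were at or near 0 in all 4 libraries, and SOX10 had 86.3, 39.9, 0 and 19.4 CPM, so that the RVC library held no UMI of this marker, which allows up to 0.0910 CPM. S100B, at 32.8, 6.97, 0 and 0.276 CPM, was likewise highest in S and without a UMI in RVC, while MITF, at 9.78, 20.2, 8.13 and 41.2 CPM, was highest in RVT. PMEL had at most 0.439 CPM. The summed fibroblast markers were 0.512, 0.744, 40.4 and 27.9 CPM, while leukocyte and endothelial markers summed to at most 0.744 and 1.40 CPM and keratinocyte markers, nearly all KRT14, to 6.26, 11.3, 0 and 0.709 CPM. The RVC library thus lacked SOX10, S100B and KRT14, which S and RV held, and whether its cells are A375 was not tested, so every value of RVC is given as that of the library labelled RVC. The part of depth, annotation and these markers in the results below was not tested, and each of depth and annotation cannot be told apart from double resistance.

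The mitochondrial genome is transcribed as long precursors that are cut into mRNAs, and 2 of these mRNAs carry a pair of overlapping reading frames. The overlaps are shown because the members of each pair gave diverging counts, described below. In both sequences the first capitals are the start codon of the downstream frame and the last capitals the stop codon of the upstream frame (GENCODE 29 transcripts, GRCh38).
MT-ATP8 and MT-ATP6, chrM:8527-8572, plus strand: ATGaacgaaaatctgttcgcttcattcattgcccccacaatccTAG
MT-ND4L and MT-ND4, chrM:10760-10766, plus strand: ATGcTAA

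The 13 mitochondrially encoded genes together had 31910 CPM in S and 30901 in RV, against 36544 in RVC and 58873 in RVT. Their sum was therefore highest in RVT, 1.84-fold that of S (log2 0.88, interval 0.88 to 0.89) and 1.61-fold that of RVC (log2 0.69, interval 0.68 to 0.69), and within 0.20 log2 units of S in the other 2 libraries. The 83 nuclear-encoded subunits together had 33902 CPM in S and 33039 in RV, against 44464 in RVC and 39253 in RVT. Here RVC was highest, with log2 ratios to S of -0.04 (RV), 0.39 (RVC) and 0.21 (RVT). Because library size sets these values, each was also read against the median gene, for which the 6505 genes with a mean of at least 10 CPM had log2 medians of 0.02 (RV over S), 0.16 (RVC over S), 0.21 (RVT over S) and 0.15 (RVT over RVC). Relative to that median the mitochondrial sum was 0.67 higher in RVT than in S and 0.53 higher in RVT than in RVC, and 0.04 higher in RVC than in S. Under TMM scaling, a normalisation by trimmed means that moves all genes of a library alike, the log2 ratio of the mitochondrial sum of RVC over S was -0.02 in place of 0.20 and that of the nuclear sum of RVT over S -0.31 in place of 0.21, with both unchanged relative to the median gene. The nuclear sum of RVT over S was at the median (-0.003 relative to it), while that of RVT over RVC was 0.33 below the median. A sum weighs abundant genes most, unlike a median over genes. The median nuclear subunit stood at -0.37 relative to the median gene in RVT over S and at -0.30 in RVT over RVC.

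Mitochondrially encoded UMIs per nuclear-encoded subunit UMI were 0.941, 0.935, 0.822 and 1.4999. The ratio does not depend on library size, and it was highest in RVT. It was most uneven for complex I, at 1.12, 1.07, 1.24 and 2.95 in the same order. In complex I the RVT library combined the lowest nuclear sum (8394, 8404, 7942 and 5829 CPM in S, RV, RVC and RVT) with the highest mitochondrial sum (9429, 9018, 9864 and 17207 CPM). The nuclear subunits of complex IV, the terminal oxidase, were instead higher in both double-resistant libraries (8219, 8088, 12317 and 13586 CPM). Complex V, the ATP synthase, had 11917, 11086, 16877 and 13735 CPM, complex III 5027, 5109, 6978 and 5731 CPM, and complex II 346, 352, 351 and 371 CPM. Relative to the median gene in RVT over S, the nuclear sum of complex I was 0.74 lower and that of complex IV 0.51 higher. The sums of complexes II, III and V lay within 0.12 of it and were below S under TMM scaling. Such sums weigh abundant genes most. The median nuclear subunit stood at -1.23 (I), 0.22 (II), -0.48 (III), 0.81 (IV) and 0.23 (V) relative to the median gene.

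**Figure D1:**
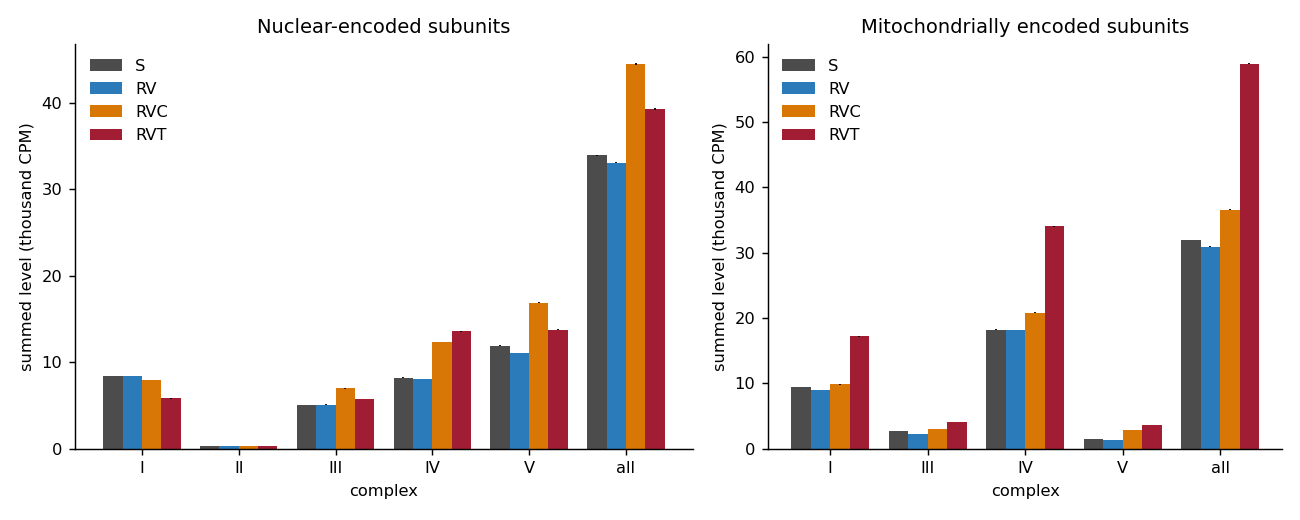
Summed levels of nuclear-encoded (left) and mitochondrially encoded (right) subunits by complex in CPM (bars, axis in units of 1000) with exact Poisson intervals at 95% (thin lines), 1 library per colour. The mitochondrial sum of all complexes stands at 58873 CPM in RVT against 30901 to 36544 in the other 3 libraries, and nuclear complex I is lowest in RVT.

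The single mitochondrial mRNAs did not move as a block. MT-ND1, a core membrane subunit of complex I, had 1320, 1125, 2416 and 5574 CPM, so that RVT was above every other library. Its log2 ratio was 2.08 for RVT over S (interval 2.07 to 2.09) and 1.21 for RVT over RVC (1.19 to 1.22), the highest of the 13 in both comparisons. MT-ND3, another core subunit of the same complex, went from 2003 CPM in S and 1753 in RV to 1293 in RVC and 803 in RVT, with a log2 ratio of -1.32 for RVT over S. Thus 2 subunits of 1 complex, encoded on the same strand, lay on opposite sides of S.

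MT-CO1 and MT-CO2, catalytic subunits of complex IV, had 10787 and 14182 CPM in RVT against 5289 to 6356 and 8162 to 8302 CPM in the other libraries, that is log2 ratios of 0.78 and 0.77 to S. MT-CO3, the other mitochondrial subunit of complex IV, had 3659, 3630, 7395 and 9045 CPM. It was thus higher in both double-resistant libraries, at log2 1.02 (RVC) and 1.31 (RVT) over S. MT-CYB, the mitochondrial subunit of complex III, had 2737, 2306, 3008 and 4049 CPM in S, RV, RVC and RVT. MT-ND5 had log2 ratios of 0.13 for RVC over S and 0.95 for RVT over S. MT-ND2 had -0.17 and 0.45, and its ratio for RVT over S turned to -0.07 under TMM scaling. The ratios of RVC over S for MT-ND5 and MT-CYB also turned negative under TMM scaling. MT-ND6 is the only member encoded on the light strand, and it was also the one of the 13 with its highest level in RVC (52.8, 64.1, 201 and 91.8 CPM), with a log2 ratio of 1.93 for RVC over S and -1.13 for RVT over RVC.

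Both overlapping pairs diverged. MT-ATP6, a proton-channel subunit of ATP synthase, had 1504, 1371, 2819 and 3599 CPM, whereas MT-ATP8, whose frame overlaps its first 46 bases, had 18.4, 17.7, 7.89 and 4.37 CPM. For RVT over S the log2 ratios were 1.26 for MT-ATP6 and -2.07 for MT-ATP8 (interval -2.37 to -1.79), the latter from 111 UMIs in RVT. MT-ND4 had 3523, 3473, 3673 and 7233 CPM and MT-ND4L, with which it shares 7 bases, had 169, 150, 100 and 54.4 CPM, at log2 ratios for RVT over S of 1.04 and -1.64 (interval -1.72 to -1.55). The members of each pair share 1 mRNA, so these values count the parts of the transcript to which reads were assigned and not separate mRNAs. A read in an overlap fits both genes, and how the counting treated it is not given in the sources used here. The genes with the lowest ratios for RVT over S, MT-ATP8 (207 bases), MT-ND4L (297 bases) and MT-ND3 (346 bases), are the 3 shortest of the 13.

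**Figure D2:**
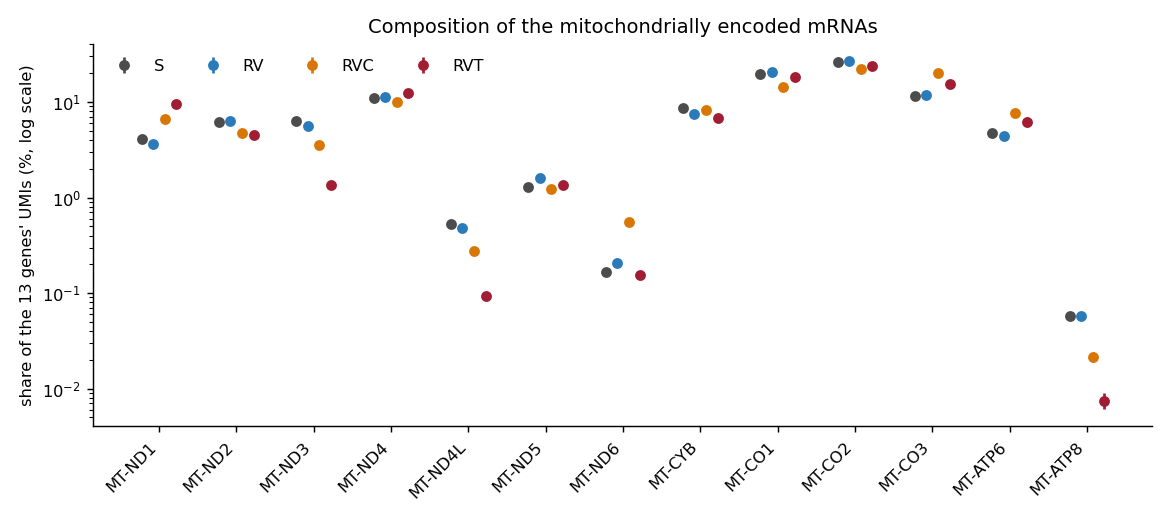
Share of each of the 13 mitochondrially encoded genes in their joint UMIs (percent, log scale) in the 4 libraries, with exact binomial intervals at 95% where wider than the points. MT-ND1 goes from 4.14% in S to 9.47% in RVT, and MT-ATP8, MT-ND4L and MT-ND3 lie lowest in RVT.

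With the whole sum set to 100%, MT-ND1 took 4.14, 3.64, 6.61 and 9.47%, and MT-ND3 took 6.28, 5.67, 3.54 and 1.36%. MT-CO3 took 11.5, 11.7, 20.2 and 15.4%, and was the share that differed most between RVC and S in percentage points. MT-CO2 stayed the largest share in every library, between 22.3 and 26.5%. Across the 13 genes, 0 passed 2-fold in RV over S, against 1.89% of all genes at least 2-fold higher and 1.26% at least 2-fold lower. In RVC over S, 2 were at least 2-fold higher (22.5% of all genes) and 1 lower (23.3%), or 1 and 1 under TMM scaling (16.1% and 27% of all genes). In RVT over S, 4 were higher (28.6% of all genes) and 3 lower (24.3%), or 1 and 3 under TMM scaling (16.5% and 33.6% of all genes). In RVT over RVC, 2 were higher (15.1% of all genes) and 1 lower (11.8%), or 0 and 3 under TMM scaling (8.32% and 18.2% of all genes).

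Per cell, mitochondrially encoded genes took a median of 3.15, 3.06, 3.58 and 5.77% of UMIs. The middle 50% of S cells spanned 2.78 to 3.57%, those of RV 2.69 to 3.52%, those of RVC 2.84 to 4.41% and those of RVT 5.04 to 6.63%. The lower quartile of RVT lay above the upper quartile of each other library. The spread within RVC was about as wide as that within RVT (1.57 and 1.59 percentage points) and wider than in S (0.794). These spreads include counting error, which is larger in cells of lower depth. With every cell thinned to 1500 UMIs the medians were 3.13, 3.07, 3.53 and 5.73%, leaving out 397 RVC and 845 RVT cells of lower depth. Random thinning keeps the expected share of each cell, so these medians cannot show the part of depth. The spreads after thinning were 1.00, 1.00, 1.60 and 1.67 percentage points. The share was lower in deeper cells within each library. Among cells of 4000 to 8000 UMIs it was 3.35, 3.48, 3.61 and 5.65%. RVT was thus above the other libraries in this range of depth also. Cells above 10% made up 0.111, 0.120, 1.60 and 2.77% of S, RV, RVC and RVT after the limit of 20%, which had taken out 56 RVC and 30 RVT barcodes with at least 500 genes.

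**Figure D3:**
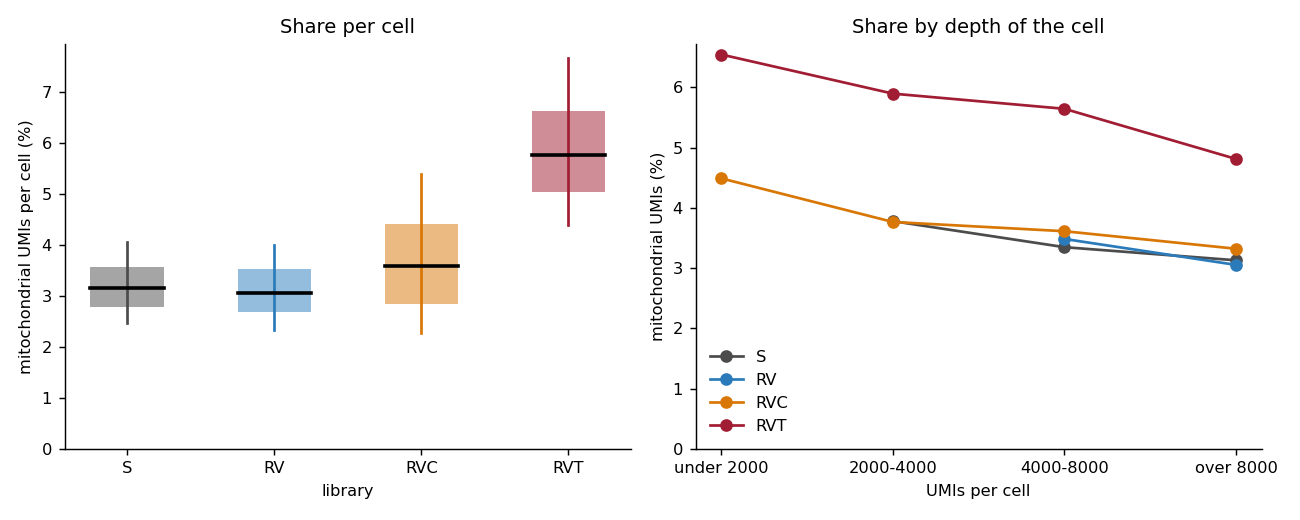
Left, mitochondrially encoded share of UMIs per cell (percent): black line median, box middle 50%, thin line 10th to 90th percentile of the cells of 1 library. Right, the same share summed over cells of each depth class (bins with under 20 cells left out), where RVT lies between 4.81 and 6.55% and the other libraries between 3.05 and 4.49%.

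Cells with more mitochondrial UMIs did not hold fewer nuclear-encoded subunit UMIs in every library. The cells of each library were split by mitochondrial share into 3 groups of equal size, and the subunits were counted per 1000000 non-mitochondrial UMIs. The low, middle and high groups of S had 34241, 35089 and 35828, and those of RV 33345, 34339 and 34672, so that nuclear-encoded levels were higher where the mitochondrial share was. In RVC the order was opposite, at 48942, 45919 and 43063, and in RVT likewise at 42906, 41355 and 40669. Single complexes departed from these sums. Complex III went up in RVT (5987, 6135 and 6161), and complex II went down in S (368, 359 and 345) and RV (387, 361 and 338). Median depth was lowest in the high group of each library (8124, 10348.5, 3607.5 and 2579.5 UMIs per cell), and its part in this was not tested.

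In RV over S the nuclear-encoded members stayed within a narrow range. Of the 99, 88 had a mean of at least 10 CPM and were compared gene by gene. In RV over S, 0 of these 88 were at least 2-fold higher (1.89% of all genes) or lower (1.26%), and 0 were at least 1.5-fold higher (5.35%) or lower (4.06%). Their median log2 ratio was 0.01 (all genes 0.02), and their range was -0.46 to 0.56. The member with the highest ratio was SDHA, the flavoprotein subunit of complex II, at 19.4 CPM in S and 28.7 in RV (log2 0.56, interval 0.45 to 0.67). UQCRHL (0.49) and NDUFV2 (0.46), a subunit of the NADH-oxidising module of complex I, followed. UQCRHL is a near-identical intronless copy of UQCRH, so its reads cannot be told apart with certainty. The lowest were the complex I subunits NDUFB8 (271 and 196 CPM, log2 -0.46), NDUFA13 (-0.39) and NDUFA11 (-0.32).

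**Figure D4:**
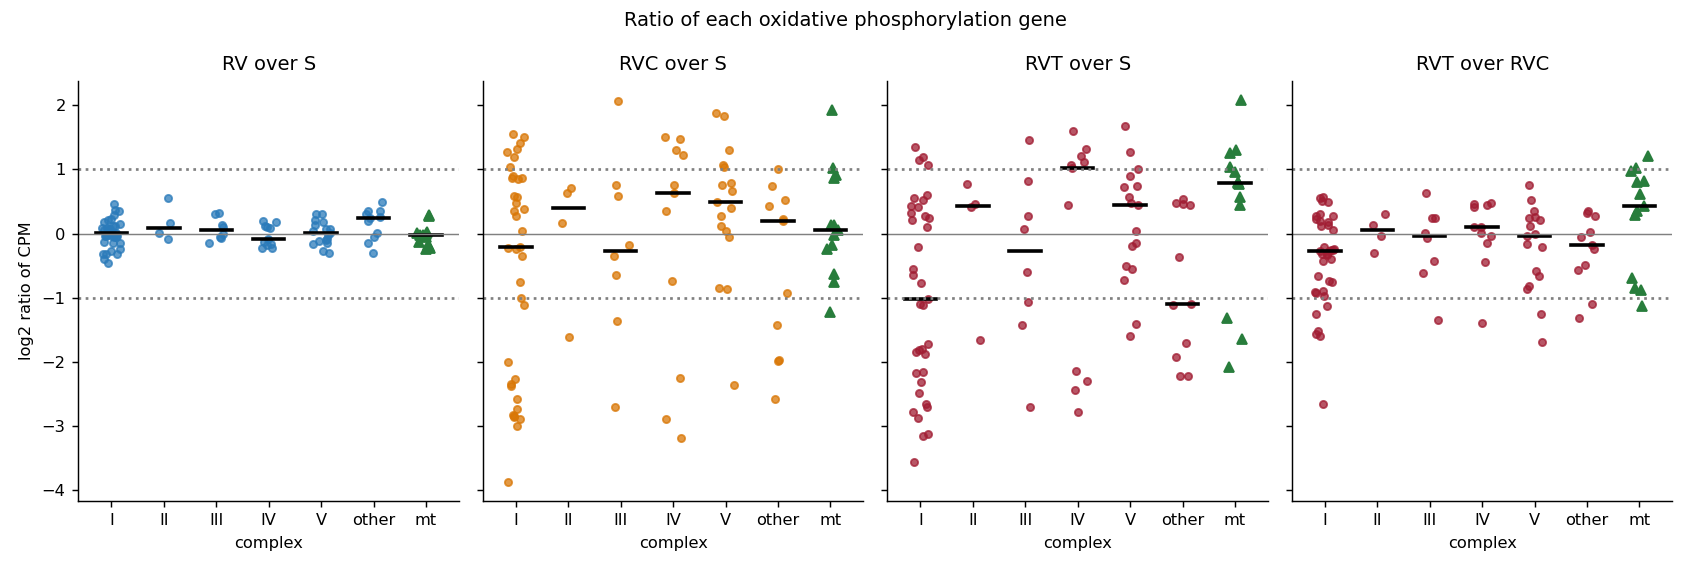
Log2 ratio of CPM of each member (circles: nuclear-encoded subunits by complex; "other": nuclear-encoded members that are not subunits; triangles, "mt": mitochondrially encoded) in 4 comparisons, with medians as black bars and 2-fold as dotted lines. RV over S keeps all compared members between -0.46 and 0.56, whereas in RVC over S the subunits of complex I spread from -3.87 to 1.55 and those of complex III from -2.70 to 2.06.

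In the double-resistant libraries, subunits of the same complex lay far apart. In RVC over S, 18 of the 88 were at least 2-fold higher (22.5% of all genes) and 25 lower (23.3%), with 13 and 28 under TMM scaling (16.1% and 27% of all genes) and a median of 0.25 (all genes 0.16). In RVT over S, 14 were higher (28.6% of all genes) and 35 lower (24.3%), with 2 and 42 under TMM scaling (16.5% and 33.6% of all genes) and a median of -0.20 (all genes 0.21). The share of members at least 2-fold lower in RVT was thus above that of all genes, and the share higher below it. The 2 comparisons use the same S library and are not independent of each other. When log2 ratios were centred within 20 bins of GC content, 15 of the members were at least 2-fold higher (20.3% of all genes) and 21 lower (19.1%) in RVC over S, and 10 (26.3%) and 24 (19.3%) in RVT over S. In RVT over RVC, which share annotation and lie closer in depth, 0 were at least 2-fold higher (15.1% of all genes) and 12 lower (11.8%), or 20 lower under TMM scaling (18.2% of all genes).

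The counts by complex are to be read against the same shares of all genes: 22.5% higher and 23.3% lower in RVC over S, 28.6% and 24.3% in RVT over S, and 15.1% and 11.8% in RVT over RVC, with the shares under TMM scaling given above. Complex I, which holds 37 of the 77 compared nuclear subunits, had more of the lower members by count than any other complex in all 3 comparisons. Its size favours such a count. Of its 37 nuclear subunits, all compared, 4 were at least 2-fold higher and 19 lower in RVT over S (median -1.02; 0 and 22 under TMM scaling), 7 higher and 14 lower in RVC over S (median -0.21) and 0 higher and 6 lower in RVT over RVC (median -0.27; 0 and 12 under TMM scaling). NDUFS7, an iron-sulfur subunit next to the quinone site, had 133, 127, 9.10 and 11.3 CPM, the lowest ratio of the 88 compared members in both double-resistant libraries (log2 -3.87 and -3.56). NDUFV1, which binds NADH and the flavin cofactor, had 90.9, 88.1, 12.5 and 10.4 CPM, and NDUFB7, an accessory subunit of the membrane arm, had 430, 362, 57.7 and 48.3 CPM. NDUFB11, another membrane-arm accessory subunit, had 381, 345, 47.7 and 67.8 CPM. All 4 were at a similar level in S and RV and several-fold lower in RVC and RVT.

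Other subunits of complex I went the other way. NDUFS5 had 414, 434, 748 and 1051 CPM (log2 1.35 for RVT over S), and NDUFB4 had 243, 312, 650 and 559 CPM (1.42 for RVC and 1.20 for RVT over S). NDUFS1, the largest subunit of the electron-input module, had 14.3, 11.9, 41.8 and 31.6 CPM (1.55 and 1.15). NDUFA7 (28.9, 26.3, 81.8 and 43.8 CPM) and NDUFB3 (80.5, 98.9, 200.5 and 107 CPM) were also at least 2-fold higher in RVC than in S but not in RVT. Core catalytic subunits were found on both sides, since NDUFS3, NDUFS7, NDUFS8, NDUFV1 and NDUFV2 had log2 ratios of -2.18, -3.56, -2.15, -3.13 and -1.02 for RVT over S against 1.15 for NDUFS1.

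Between the double-resistant libraries, NDUFA3, a small accessory subunit, had the lowest ratio of the 88: 270 CPM in RVC against 42.6 in RVT, with 312 in S and 365 in RV (log2 -2.66, interval -2.75 to -2.57). NDUFA13, known also as the cell death regulator GRIM-19, followed among complex I members at 378 CPM in RVC and 125 in RVT (-1.60), then NDUFC2 at 179 and 60.4 CPM (-1.56) and NDUFB8 at 212 and 73.9 CPM (-1.52). RVC lay within 0.48 log2 units of S for these 4 complex I genes, whereas RVT was at least 2-fold below S for each.

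Complex II, the succinate dehydrogenase that also belongs to the citrate cycle, differed little in its sum but not in its parts. SDHB, the iron-sulfur subunit, had 146, 138, 47.6 and 46.4 CPM (log2 -1.62 and -1.66 over S). SDHC, a membrane anchor, had 157, 158, 242 and 266 CPM (0.63 and 0.77), and SDHD, the other anchor, had 24.3, 27.2, 39.8 and 32.2 CPM (0.71 and 0.41). SDHA had 19.4, 28.7, 21.7 and 26.7 CPM and stayed within 0.56 of S. SDHB was thus the 1 member of 4 that passed 2-fold. In CPM, RVC and RVT did not differ in SDHB beyond counting error (log2 -0.04, interval -0.15 to 0.07). TMM scaling takes this ratio below that interval.

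In complex III, 1 of 8 nuclear subunits was at least 2-fold higher and 2 lower in RVC over S, and 1 and 3 in RVT over S (0 and 4 under TMM scaling). UQCR10, a small accessory subunit, had 233, 292, 974 and 637 CPM, the highest ratio of the 88 compared members in RVC over S (log2 2.06; RVT 1.45). UQCR11, another small subunit, had 474, 459, 72.8 and 72.9 CPM (-2.70 in both). The Rieske iron-sulfur protein UQCRFS1 had 176, 175, 68.5 and 65.1 CPM (-1.36 and -1.43). UQCRQ had 1467, 1574, 2467 and 968 CPM, on opposite sides of S in RVC and RVT. UQCRC2, a core protein, was among the 3 highest ratios of RVT over RVC (68.7 and 106 CPM, log2 0.63).

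Complex IV had the largest share of higher subunits. Of 11 compared, 4 were at least 2-fold higher and 3 lower in RVC over S, and 6 and 4 in RVT over S (1 and 4 under TMM scaling). NDUFA4, once assigned to complex I and now counted as a cytochrome c oxidase subunit, had 620, 713, 1752 and 1880 CPM (log2 1.60 for RVT over S). COX6B1 had 631, 683, 1562 and 1573 CPM, COX7A2 had 789, 718, 1836 and 1662 CPM, and COX4I1 had 1247, 1106, 2097 and 2887 CPM. These 4 subunits were higher in both double-resistant libraries. COX7B had 419, 447, 536 and 572 CPM and remained within 0.45 of S. In CPM, RVC and RVT did not differ in COX6B1 beyond counting error (0.01, interval -0.01 to 0.03). TMM scaling, which moved the median gene of RVT over RVC from 0.15 to -0.15, takes this ratio below that interval.

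Other nuclear subunits of complex IV were lower. COX5A had 518, 490, 56.6 and 75.6 CPM (log2 -3.19 and -2.78), and COX5B, which binds zinc, had 502, 427, 67.9 and 92.4 CPM (-2.89 and -2.44). COX8A had 611, 547, 128 and 124 CPM (-2.26 and -2.30). COX6A1 was lower by less in RVC than in RVT (757, 646, 454 and 172 CPM), with a log2 ratio of -1.40 for RVT over RVC, the 1 of the 11 compared complex IV subunits past 2-fold there.

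Tissue-restricted forms of complex IV subunits were mostly at the limit of detection. COX6A2 and COX7A1, the heart and muscle forms, had 0 UMIs in all 4 libraries, which allows at most 0.0512 CPM in S and 0.118 CPM in RVT. COX4I2, the lung form that is induced by hypoxia, had 1 UMI in all, in RVT, and COX8C had at most 3 UMIs in a library. COX6B2, a testis form, was low but above that limit, with 0.307, 1.20, 0.485 and 0.669 CPM, on 18, 63, 16 and 17 UMIs. COX7B2, also known from testis, reached higher levels in S, RV and RVC, with 4.23, 3.70, 21.6 and 0.315 CPM, on 248, 194, 713 and 8 UMIs. RVC was the highest and RVT the lowest, with a log2 ratio of -6.10 for RVT over RVC (interval -7.32 to -5.12). UMIs of COX7B2 were found in 3.60, 4.19, 8.58 and 0.0829% of S, RV, RVC and RVT cells, or 0.600, 0.718, 3.28 and 0.0526% after thinning to 1500 UMIs. No cell type known to lack the gene was present for a background level. Its mean over the 4 libraries was under 10 CPM, so it was outside the counts above.

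NDUFA4L2, the hypoxia-inducible paralogue of NDUFA4, was likewise low, with 5.37, 4.92, 0.121 and 0.315 CPM, on 315, 258, 4 and 8 UMIs. It was thus lower in both double-resistant libraries, opposite to NDUFA4, at log2 -5.47 (interval -7.35 to -4.10) and -4.09 (-5.32 to -3.10) over S. RVC and RVT were not distinguishable from each other (interval -0.52 to 3.56). UQCRHL had 20.4, 28.8, 10.7 and 9.53 CPM and UQCRH, the hinge protein of complex III, 1752, 1584, 2628 and 3100 CPM, also in opposite directions.

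In complex V, 5 of 17 subunits were at least 2-fold higher and 1 lower in RVC over S (3 and 3 under TMM scaling), and 3 and 2 in RVT over S (1 and 5 under TMM scaling). The 3 genes ATP5MC1, ATP5MC2 and ATP5MC3 encode the same mature c-ring subunit behind different import sequences, and they differed in their ratios. ATP5MC1 had 239, 294, 881 and 762 CPM (log2 1.88 and 1.67). ATP5MC3 had 263, 304, 932 and 389 CPM (1.83 and 0.57), so that it was 2.40-fold higher in RVC than in RVT. ATP5MC2 had 926, 914, 1299 and 1553 CPM (0.49 and 0.75). All 3 were above S in both, and ATP5MC2 was 0.26 higher in RVT than in RVC, which turned to the other side under TMM scaling.

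Among other subunits of ATP synthase, ATP5ME, a small subunit of the membrane part, had 1920, 1588, 2332 and 723 CPM (log2 -1.69 for RVT over RVC). ATP5F1D, the delta subunit of the central stalk, had 102, 126, 19.8 and 33.5 CPM, lower in both than in S (-2.36 and -1.60) but with the highest ratio of the 88 in RVT over RVC (0.76, interval 0.61 to 0.91). The subunits ATP5F1A and ATP5F1B had log2 ratios of -0.86 and -0.85 in RVC and -0.51 and -0.73 in RVT over S. ATP5F1E, the epsilon subunit, was near S in both in CPM (0.05 and 0.04) and below S in both under TMM scaling. ATP5IF1, which inhibits the reverse, ATP-hydrolysing action of the synthase, had 333, 426, 55.8 and 71.4 CPM (0.35, -2.58 and -2.22 over S).

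The 8 complex I assembly factors among the members summed to 659, 754, 400 and 251 CPM. Of the 7 compared, 1 was at least 2-fold higher and 3 lower in RVC over S (0 and 3 under TMM scaling), and 0 and 4 in RVT over S. NDUFAF3 had 200, 254, 50.6 and 61.0 CPM and NDUFAF8 had 208, 250, 52.9 and 44.6 CPM, both several-fold lower in RVC and RVT. NDUFAF2 was near S in RVC but lower in RVT (156, 141, 179 and 72.4 CPM). COX7A2L had 204, 206, 275 and 280 CPM, and ATP5S 24.9, 24.1, 29.1 and 36.2 CPM.

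The base composition of the transcripts moved with these differences. Nuclear members were ordered by the GC share of the 3' terminal 500 bases of each gene's longest protein-coding transcript. This assay primes near the 3' end, but the transcript expressed in these cells may be another and end elsewhere. Across the 88 genes, which share libraries and are not independent replicates, Spearman's rho with the log2 ratio was -0.37 in RVC over S and -0.43 in RVT over S, near the values over all genes of -0.34 and -0.40. It was -0.09 in RV over S and 0.01 in RVT over RVC, where all genes had 0.01 and -0.17. With transcript length, rho was -0.12 in RVC over S, 0.05 in RVT over S and 0.26 in RVT over RVC for the members, against 0.29, 0.44 and 0.28 for all genes. Of the 29 members with the highest GC (47.4 to 70.2%), 13 were at least 2-fold lower in RVC and 19 in RVT, against 6 in each of the 30 with the lowest GC (27.0 to 40.2%). Of all genes in the same GC ranges, 41.9% (RVC) and 45.4% (RVT) were lower in the high range and 12.5% and 12.2% in the low range. Members outside this order remained, as COX5A (38.8% GC) was low in both and ATP5MC1 (53.6% GC) high in both. Of 83 cytosolic ribosomal protein genes, 5 were at least 2-fold higher (22.5% of all genes) and 21 lower (23.3%) in RVC over S, and 9 (28.6%) and 26 (24.3%) in RVT over S.

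**Figure D5:**
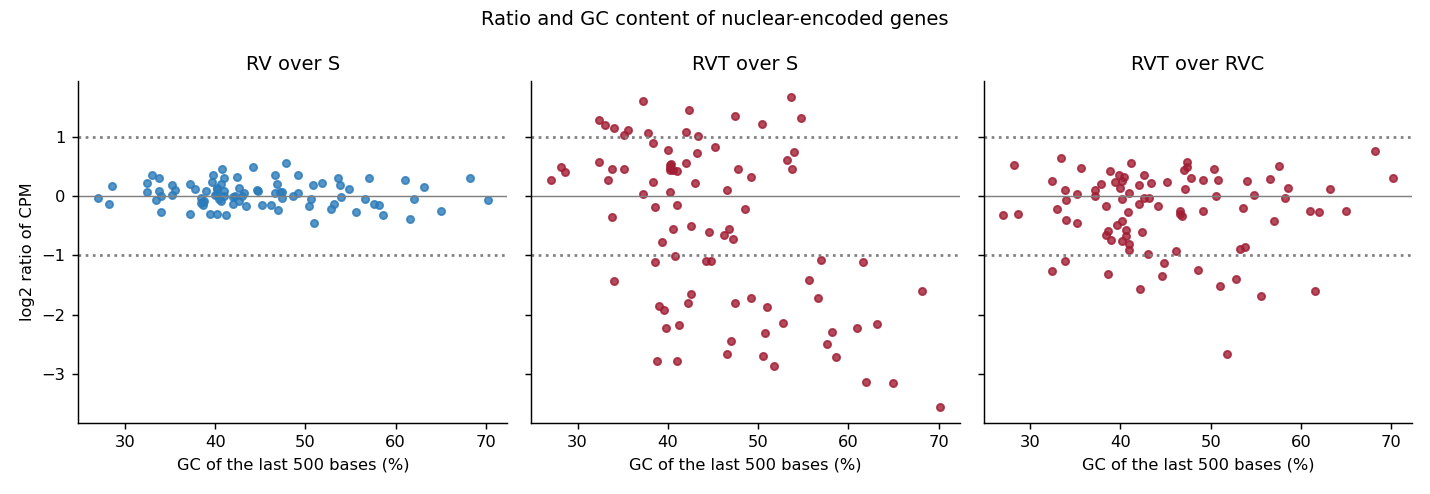
Log2 ratio of CPM of the 88 compared nuclear-encoded members against GC (percent) of the 3' terminal 500 transcript bases in 3 comparisons, dotted lines at 2-fold. The points slope downward in RVT over S (rho -0.43) and lie flat in RV over S and in RVT over RVC.

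NRF1, GABP (of the ETS family) and YY1 are the transcription factors best known for binding promoters of nuclear-encoded respiratory genes. Promoter sequences from RefSeq (GRCh38.p14, 250 bases before to 50 after the start) matched 78 of the 99 nuclear-encoded members. The NRF1 core GCATGCGC, on either strand, was in 15 of the 78 (19.2%) against 4.31% of all 14896 promoters. The ETS core CCGGAAG was in 21 (26.9% against 14.4%), the YY1 core AAGATGGCG in 8 (10.3% against 2.83%) and TATAAA in 7 (8.97% against 9.37%). A match is a stretch of letters and not a site of binding. The 250 bases before the start are shown for 4 members with the NRF1 core, picked after their values were seen, of which NDUFS7 and COX5B were lower and NDUFB4 and ATP5PF higher in RVC and RVT than in S. Capitals mark the NRF1 core.
NDUFS7, chr19:1383657-1383906, plus strand: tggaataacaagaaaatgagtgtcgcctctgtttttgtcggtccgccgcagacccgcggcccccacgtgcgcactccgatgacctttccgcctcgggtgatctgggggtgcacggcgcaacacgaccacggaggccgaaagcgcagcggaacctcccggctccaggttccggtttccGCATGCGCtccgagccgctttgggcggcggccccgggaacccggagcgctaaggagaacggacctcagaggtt
COX5B, chr2:97645812-97646061, plus strand: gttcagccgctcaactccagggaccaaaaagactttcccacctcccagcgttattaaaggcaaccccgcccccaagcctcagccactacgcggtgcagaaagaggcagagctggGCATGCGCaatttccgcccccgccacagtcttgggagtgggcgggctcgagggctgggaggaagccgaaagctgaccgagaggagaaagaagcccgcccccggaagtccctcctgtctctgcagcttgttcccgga
NDUFB4, chr3:120596086-120596335, plus strand: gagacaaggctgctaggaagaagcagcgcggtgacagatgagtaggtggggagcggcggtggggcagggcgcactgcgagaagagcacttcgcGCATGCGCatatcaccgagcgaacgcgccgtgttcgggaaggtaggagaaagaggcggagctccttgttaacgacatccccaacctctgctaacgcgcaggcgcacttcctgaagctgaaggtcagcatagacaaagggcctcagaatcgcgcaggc
ATP5PF, chr21:25735055-25735304, minus strand: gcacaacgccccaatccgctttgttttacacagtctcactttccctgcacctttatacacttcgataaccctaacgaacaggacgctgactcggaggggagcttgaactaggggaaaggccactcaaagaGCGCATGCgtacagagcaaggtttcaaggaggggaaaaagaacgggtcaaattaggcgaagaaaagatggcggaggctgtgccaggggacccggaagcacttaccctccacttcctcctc
The median log2 ratio of the 14 compared members with the NRF1 core was 0.38 in RVC over S and -0.27 in RVT over S, against 0.13 and -0.53 for the 58 compared without it. In the same order, YY1 had 0.88 and 0.23 (8 members) against 0.18 and -0.53, and TATAAA 0.96 and 0.36 (6 members) against 0.13 and -0.58. ETS had 0.58 and -0.36 against 0.05 and -0.51. The motif groups overlap, as ATP5PF holds each of these motifs, so the gaps are not separate comparisons. Each median with a motif rests on few genes, and the part of any motif was not tested. Members with the NRF1 core lay both above and below S, as the 4 shown do.

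Genes that supply, regulate or use the chain were described from lists, whose counts are again to be read against all genes (22.5% higher and 23.3% lower in RVC over S, 28.6% and 24.3% in RVT over S, 15.1% and 11.8% in RVT over RVC). The regulators of mitochondrial biogenesis summed to 155, 127, 103 and 140 CPM, and 2 of the 4 compared were at least 2-fold lower in each double-resistant library over S. PPARGC1A, singled out after its values were seen, had 0.836, 0.267, 0.182 and 9.02 CPM. RVT stood above the other 3, with a log2 ratio to S of 3.43, although its mean stayed under 10 CPM. GABPB1, a subunit of GABP, had 38.5, 36.8, 4.04 and 5.31 CPM. Genes of mitochondrial transcription and RNA handling summed to 1469, 1489, 2409 and 1045 CPM, with TFAM, the factor that packages and transcribes mitochondrial DNA, at 29.4, 30.5, 114 and 37.2 CPM and SLIRP, which stabilises mitochondrial mRNAs, at 725, 759, 1340 and 388 CPM. Both were highest in RVC, whereas the mitochondrial sum was highest in RVT, and a link between them was not tested. Of the 12 compared, 2 were at least 2-fold lower and 0 higher in RVT over RVC (6 lower under TMM scaling).

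The 47 assembly factors of all complexes summed to 2923, 3245, 4528 and 2854 CPM, with 11 of 42 at least 2-fold higher and 12 lower in RVC over S and 6 and 16 in RVT over S (6 and 13, and 3 and 20, under TMM scaling). COX17, a copper chaperone of complex IV, had 328, 453, 1004 and 279 CPM, and UQCC2, which acts in cytochrome b synthesis, 93.5, 122, 389 and 151 CPM. Of the electron carriers, CYCS, cytochrome c, had 272, 304, 463 and 248 CPM, and CYC1, the cytochrome c1 subunit of complex III, 383, 338, 86.5 and 77.2 CPM. The carriers of ADP and phosphate and the outer-membrane VDAC channels, which move the substrates and product of complex V, summed to 3211, 3141, 864 and 919 CPM. Of the 7, 1 was at least 2-fold higher and 6 lower in RVC over S, and 0 and 5 in RVT over S (0 and 6 in both under TMM scaling). SLC25A6, an ADP/ATP carrier, had 1169, 1007, 91.6 and 148 CPM. The log2 ratio of this sum was -1.89 in RVC over S and -1.81 in RVT over S, where that of the nuclear-encoded subunits was 0.39 and 0.21.

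The citrate cycle genes, which feed complexes I and II, summed to 1088, 1103, 558 and 525 CPM, with 6 of 16 at least 2-fold lower in each double-resistant library over S and 0 (RVC) and 1 (RVT, 0 under TMM scaling) higher. MDH2 carried much of this, at 505, 521, 115 and 74.8 CPM, while CS, citrate synthase, had 41.5, 35.5, 70.2 and 100 CPM. Glycolysis genes summed to 17303, 19230, 15712 and 7192 CPM. In RV over S, 1 of 18 was at least 2-fold higher (1.89% of all genes), 0 under TMM scaling. In RVC over S, 5 were higher and 2 lower, with a median log2 ratio of 0.37 although the sum was lower (-0.14), and in RVT over S 0 were higher and 4 lower (0 and 7 under TMM scaling). In RVT over RVC, 7 of 18 were at least 2-fold lower (11.8% of all genes) and 0 higher (15.1%), or 11 lower under TMM scaling, among them ENO1 at 1086 and 254 CPM and LDHA, which makes lactate, at 1216 and 368 CPM. The summed level of glycolysis mRNAs was thus lowest in RVT, the library with the highest mitochondrially encoded sum. For RVT over S the log2 ratio of this sum was -1.27, while the median of the 18 compared genes was -0.36. Metabolic activity was not measured. Mitochondrial ribosomal proteins, which translate the 13 mitochondrial mRNAs, summed to 8253, 8425, 8067 and 5750 CPM. Of 74 compared, 12 were at least 2-fold higher and 32 lower in RVC over S, 3 and 40 in RVT over S, and 0 and 12 in RVT over RVC, the last beside 11.8% of all genes lower. Cytosolic ribosomal proteins summed to 454444, 431470, 375063 and 396150 CPM.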

How the data were processed

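The study sequenced 10x Chromium v2 single-cell libraries of 4 A375 cultures, loading 10000 cells per channel. The authors deposited, for each library, a table of UMI counts per gene and cell. The submitters' processing notes name bcl2fastq 2.20.0.422, Cell Ranger and GRCh38, and the aligner settings are not given in the sources used here. S and RV carry 1 set of gene identifiers and RVC and RVT another, which can move counts of overlapping genes. Among identifiers with GENCODE 29 coordinates, no member had a same-strand exon overlap with a gene of only 1 set. Any identifier without such coordinates could not be checked.

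Barcodes with under 500 genes or over 20% mitochondrial UMIs were removed, then those with the highest Scrublet scores at 0.8% per 1000 barcodes, because Scrublet's own threshold marked 0 to 5 barcodes. Raw counts were summed per library and divided by its UMIs. With 1 library per condition no test was possible. Genes were compared where the mean over 4 libraries was at least 10 CPM (6505 genes), and a difference was counted at 2-fold. Intervals at 95% are exact Poisson (levels), exact conditional binomial (ratios) and Clopper-Pearson (shares). A count of 0 allows 3 UMIs. Named genes were the 13 mitochondrial genes, SDHA to SDHD, the 3 highest and 3 lowest nuclear members of each comparison, and fixed paralogues and regulators; others were named after their values were seen, to describe a complex. The values of 1 gene that this rule names are not reported here. In related lists 2 symbols of mitochondrial RNA handling did not match. The members and lists were chosen with earlier results of these data known. Python 3.11.15, pandas 2.3.3, scipy 1.17.1, scanpy 1.11.5 and, for TMM factors, edgeR 4.0.16 were used, and the scripts were tested on simulated data.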

Additional observations from a re-analysis of the deposited data

How the results depend on the processing

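No paired analysis was possible because each condition had 1 library. The cause of each shift below was not tested, beyond the choice itself. Ratios are log2 and in the order RV over S, RVC over S, RVT over S and RVT over RVC. TMM scaling moved the median gene to -0.02, -0.06, -0.30 and -0.15. The mitochondrially encoded sum became -0.089, -0.019 (reversed), 0.37 and 0.39 under TMM scaling, and -0.11, -0.00037 (reversed), 0.80 and 0.80 with the library size taken without mitochondrial and ribosomal genes. The nuclear-encoded subunit sum became -0.080, 0.18, -0.31 (reversed) and -0.48, and -0.10, 0.20, 0.13 and -0.069, under the same 2 scalings. In cells of 3000 to 6000 UMIs the mitochondrial sum was 0.042 (reversed, from 219 RV cells), 0.068, 0.71 and 0.64, and the nuclear sum moved to 0.40 in RVC over S and 0.22 in RVT over S. With all barcodes the mitochondrial sum was 0.30, 0.98 and 0.68 in the last 3 comparisons and the nuclear sum 0.38 in RVC over S and 0.20 in RVT over S. Without the mitochondrial limit the mitochondrial sum was 0.21, 0.89 and 0.68, with a minimum of 1000 genes 0.19, 0.85 and 0.66, and with equal weight per cell -0.040, 0.24, 0.90 and 0.66. The nuclear sum was 0.39 in RVC over S and 0.21 in RVT over S with a minimum of 1000 genes, and -0.041, 0.22 and -0.17 in RV over S, RVT over S and RVT over RVC with equal weight per cell. Thus the higher mitochondrial sum of RVT kept its direction under all 7 alternatives, and the difference between RVC and S did not.

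With no minimum level (over 3 UMIs in the higher library), 2 nuclear-encoded members were at least 2-fold higher in RV over S (9.23% of all genes), COX6B2 at 18 and 63 UMIs and ATP5MF-PTCD1 at 1 and 4 UMIs. In RVT over RVC, 1 was higher at that setting (26.6% of all genes) and with a mean of at least 1 CPM (21.7%), NDUFA4L2 at 4 UMIs in RVC and 8 in RVT. At 1.5-fold, 32 were higher (36.7% of all genes) and 31 lower (31.2%) in RVC over S, 20 (39.6%) and 39 (31.5%) in RVT over S, and 2 (30.3%) and 24 (21.2%) in RVT over RVC. Under TMM scaling, 2 were higher in RVT over S (16.5% of all genes) and 20 lower in RVT over RVC (18.2%). Centring on GC content was added after the data were seen. It left 24 lower in RVT over S against 35, and the median of nuclear members at 0.18 in RVC over S and -0.11 in RVT over S. The mitochondrial genes and the 3 highest and 3 lowest nuclear members of each comparison gave 28 ratios past 2-fold. These kept their direction in all 196 values recomputed under 7 alternatives, and 180 of the values stayed past 2-fold. They were taken for their size, so a kept direction was likely beforehand. For the sums and counts of members, 54 recomputed values stayed within the interval of the main value (counts: within 1.5-fold), 46 moved out and 4 reversed. Of the remaining recomputed values (medians, single genes and shares per cell), 274 stayed and 294 moved. Ratios of other named genes were not recomputed one by one.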
